A study of Mus musculus with 24 samples.

Results

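Adult mouse dorsal root ganglia were compared in 2 states. They had been dissociated, taken into culture and collected 6 h after plating, or came from sham operated animals and had not been cultured. The comparison held 6 of the 24 libraries of the series, 3 labelled as 6 h cultures and 3 labelled as sham operated, and every one of the 20782 genes of the deposited table was a candidate. Of these, 14566 passed the filter on low values (a value of at least 10 in at least 3 of the 6 libraries) and were tested. The 6 h libraries came from adult lumbar ganglia that had been dissected, dissociated and plated thinly on laminin in Neurobasal-A medium with B-27. The sham libraries came from adult ganglia at the L4-5 levels, so the spinal levels of the groups were not described in the same way. Beside them stand 3 libraries of L4-5 ganglia after a peripheral lesion, whose interval before collection the labels do not give, 3 libraries of embryonic ganglia at E17.5, and cultures of the same kind at 12, 24 and 36 h. No genotype, strain, sex or animal number is given, and nothing says that the 3 libraries of a group came from separate animals, so the p-values measure only the spread between these libraries, which may be technical. One protocol text, with dissociation, culture and cell sorting before lysis, is attached to all libraries, and it does not say whether the sham, lesioned and embryonic ganglia were sorted.

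A dorsal root ganglion holds the cell bodies of sensory neurons, each wrapped by satellite glia, together with Schwann cells, fibroblasts, vessels and resident macrophages. Dissociation cuts both branches of every axon close to the cell body, digests the matrix around the cells and removes the neurons from their blood supply and glia, whereas sham surgery exposes the nerve and leaves the axons whole. Cut axons are known to send calcium and kinase signals back to the nucleus, where immediate early genes are switched on within minutes to hours, and a slower programme of growth genes follows over days. Enzymatic dissociation of many tissues is known to induce the same early genes, with heat shock and cytokine genes.

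The 6 h libraries held 17771784, 22545933 and 3648071 recovered reads and the sham libraries 12731657 to 21840745, and 1 read was worth 3.53 normalized units in 6 h replicate 3, the shallowest of the 6. Pairs of libraries of 1 group correlated at 0.9797 to 0.9933 on the log2 scale, and no pair matched within sampling noise (chi-square per degree of freedom of 6.97 or more). In the titles the 6 h libraries carry the numbers 339 to 341 and the sham libraries 69, 70 and 123, so preparation series, spinal level, loss of cells and time in culture move together and cannot be told apart in this comparison. The differences also moved with base composition: among the 13332 tested genes with a transcript of known GC content, the median log2 difference of 6 h minus sham was 0.24 in the fifth of genes with the lowest GC and −0.47 in the fifth with the highest. The same 2 medians were 0.38 and −0.50 for 6 h minus lesion and 0.15 and −0.28 for 6 h minus E17.5. They were −0.10 and 0.09 for lesion minus sham. Only 6 h minus sham was also run with centring on GC. The part of base composition in the results was not tested. List counts of 6 h against sham that moved by over 1.5 times after centring on GC are given with both values. In bulk libraries, fewer cells of a type and less RNA per cell cannot be told apart.

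Differences between the states were found in most tested genes. By limma on log2(value + 1) with Benjamini-Hochberg adjustment over all tested genes, 8493 of 14566 passed an adjusted p of 0.05 (58.3%). Of these, 4019 were higher at 6 h (27.6%) and 4474 lower (30.7%), and the median log2 difference of all tested genes was −0.06. A difference of at least 2-fold was reached by 1452 higher genes (9.97%) and 1599 lower genes (11.0%). The 3 values of one group lay wholly above those of the other in 9491 genes (65.2%), so groups that do not overlap were the usual case and say little about a single gene. The counts of list members below are to be read against these shares. A gene near 0 in one group passed the filter through the other group alone and could be called in only 1 direction. Log2 differences are on the log2(value + 1) scale, which understates the change of low genes, and are given with their standard errors, with 3 libraries in each group.

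**Figure D1:**
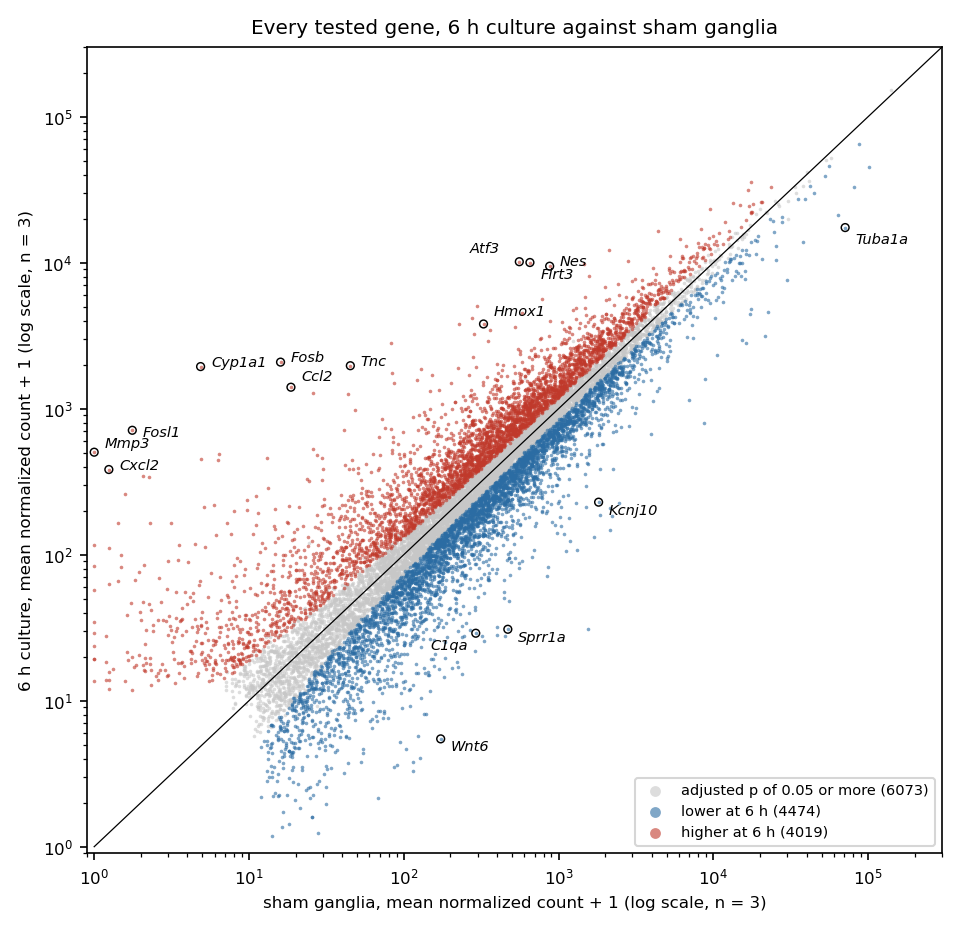
Mean normalized value plus 1 of each of the 14566 tested genes in the 3 sham libraries (x axis) and the 3 libraries of 6 h culture (y axis), both on log scales. Red points are the 4019 genes called higher at 6 h, blue points the 4474 called lower and grey points the 6073 not called, and the genes farthest above the diagonal include Cyp1a1, Fosb and Mmp3, with Wnt6 among those far below it.

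The lists differed widely from the background in both directions. Lists and members were chosen with earlier results of these data known, so part of these differences may follow from the choice. Lists with large shares of higher members were the immediate early genes, the immune signals, the targets of the stress factor Atf4 and the genes of ribosome building, while potassium channels, mechanoreceptor genes, collagens and markers of Schwann cells and macrophages had large shares of lower members.

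**Figure D2:**
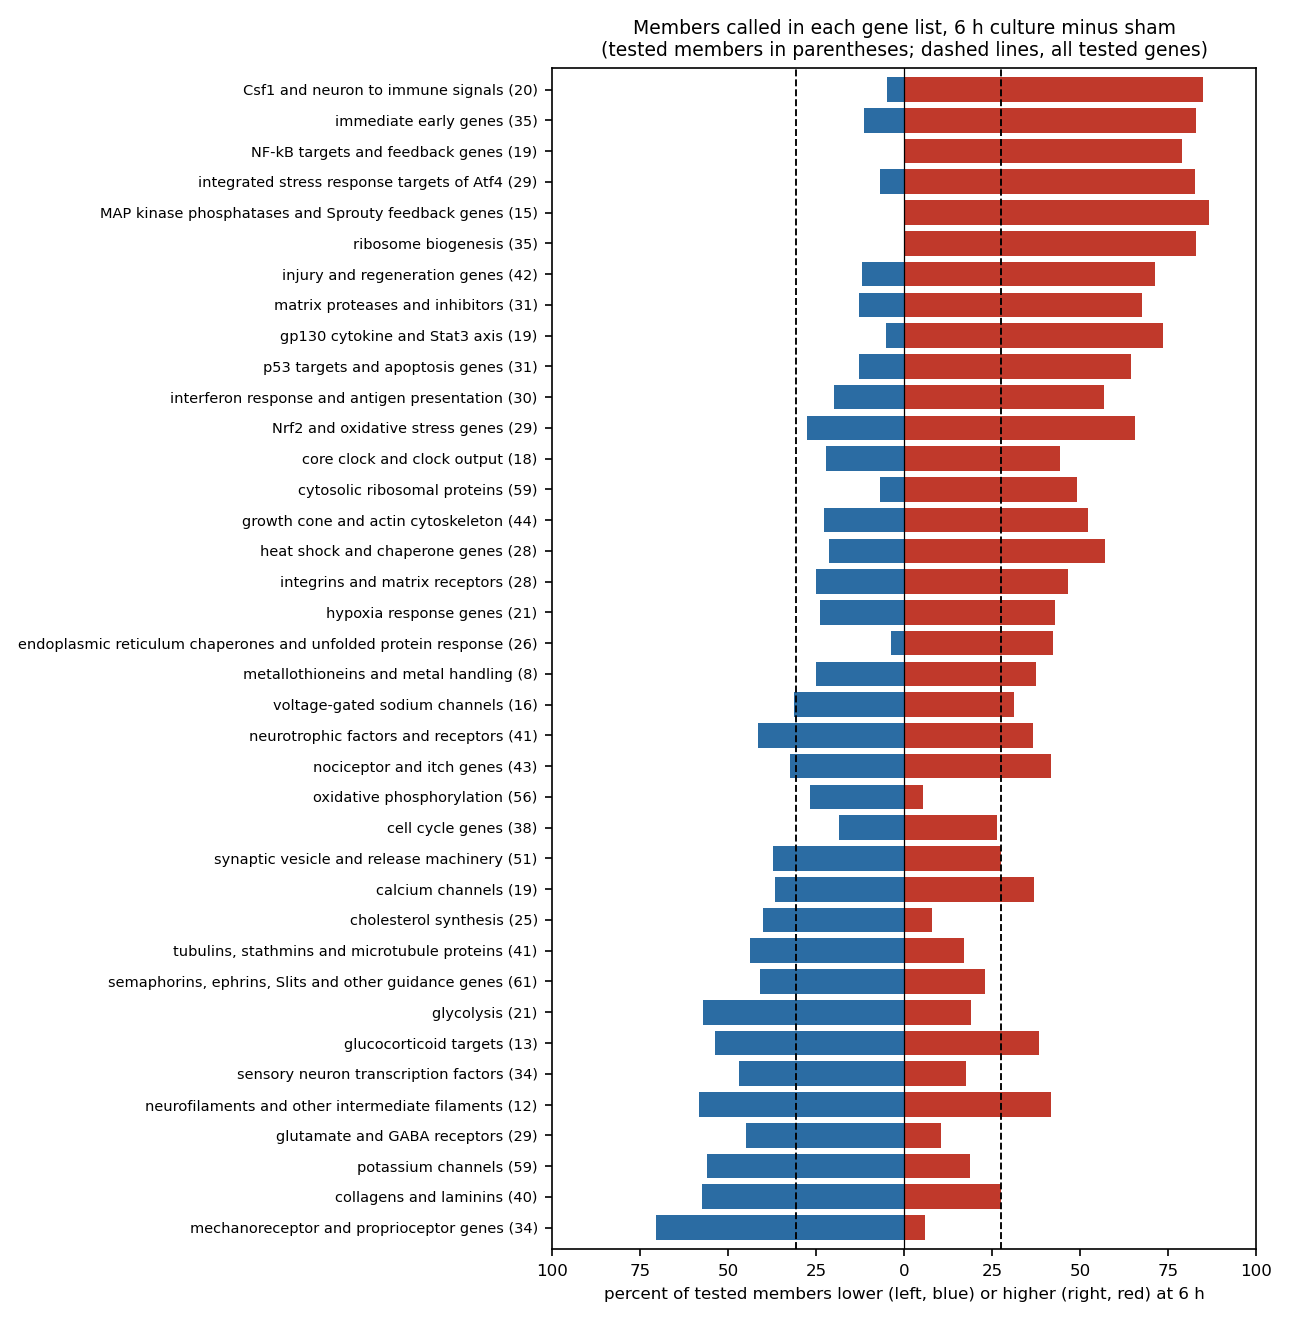
Percentage of tested members of each of 38 response lists that were called higher (to the right) and lower (to the left) at 6 h than after sham surgery, by limma at an adjusted p of 0.05. Dashed lines mark the shares of all 14566 tested genes, 27.6% higher and 30.7% lower. Lists and members were chosen with earlier results of these data known.

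The AP-1 family, pairs of Fos, Jun and Atf proteins that bind one short DNA element, stood at the head of the early genes. Of 37 listed immediate early genes 35 were tested, 29 were higher, 4 were lower and the median log2 difference was 1.82. Fosb, a Fos family member, measured 1947, 2201 and 2102 in the 6 h libraries and 12.8, 11.0 and 21.2 in the sham libraries (log2 difference 7.08 ± 0.20, limma adjusted p = 1.5e-12). Fos, the founding member, measured 2627, 3024 and 2807 against 107, 56.3 and 83.2 (5.13 ± 0.18, limma adjusted p = 1.4e-10). All 6 h values of both genes lay far above all sham values, at ratios of means of 139 and 34.3. Fosl1, which encodes Fra-1, measured 822, 812 and 497 against 0.984, 0.731 and 0.573 (8.63 ± 0.27, limma adjusted p = 6.2e-12), and each sham value corresponds to 1 read, so the fitted difference depends on the pseudocount and is no bound.

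Egr1, a zinc finger factor that follows MAP kinase activity, measured 3728, 3920 and 3805 at 6 h and 275, 178 and 230.0 after sham surgery (4.09 ± 0.14, limma adjusted p = 9.6e-12). Atf3, the factor most widely used as a mark of injured sensory neurons, measured 10686, 10176 and 9598 against 524, 566 and 579.8 (4.19 ± 0.10, limma adjusted p = 2.7e-13). Jun, its usual partner, rose less, with 6288, 6537 and 7606 against 2119, 1874 and 2028 (1.76 ± 0.10, limma adjusted p = 2.9e-09). The 3 libraries of a group were close to each other in all of these genes, and no 6 h value came near the sham range.

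Not every early gene moved upward. Jund, the Jun family member that resting cells carry, measured 629, 658 and 843 against 1355, 1227 and 1156 (−0.82 ± 0.12, limma adjusted p = 5.2e-05), and Nr4a1, an orphan nuclear receptor induced by calcium, measured 281, 270.5 and 190.4 against 420.2, 349 and 393 (−0.66 ± 0.15, limma adjusted p = 0.00197). Klf2 (−0.93 ± 0.23) and Klf10 (−0.43 ± 0.13), zinc finger factors of the Krüppel-like family, were the other members called lower. With centring on GC 2 of these 4 calls were left, and Jund (log2 difference −0.15, limma adjusted p = 0.415) and Klf2 (−0.26, adjusted p = 0.335) were no longer past the threshold. Jund also missed it when the limma fit took in all 24 libraries (adjusted p = 0.118), and Nr4a1 with centring on GC and length (0.0973).

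**Figure D3:**
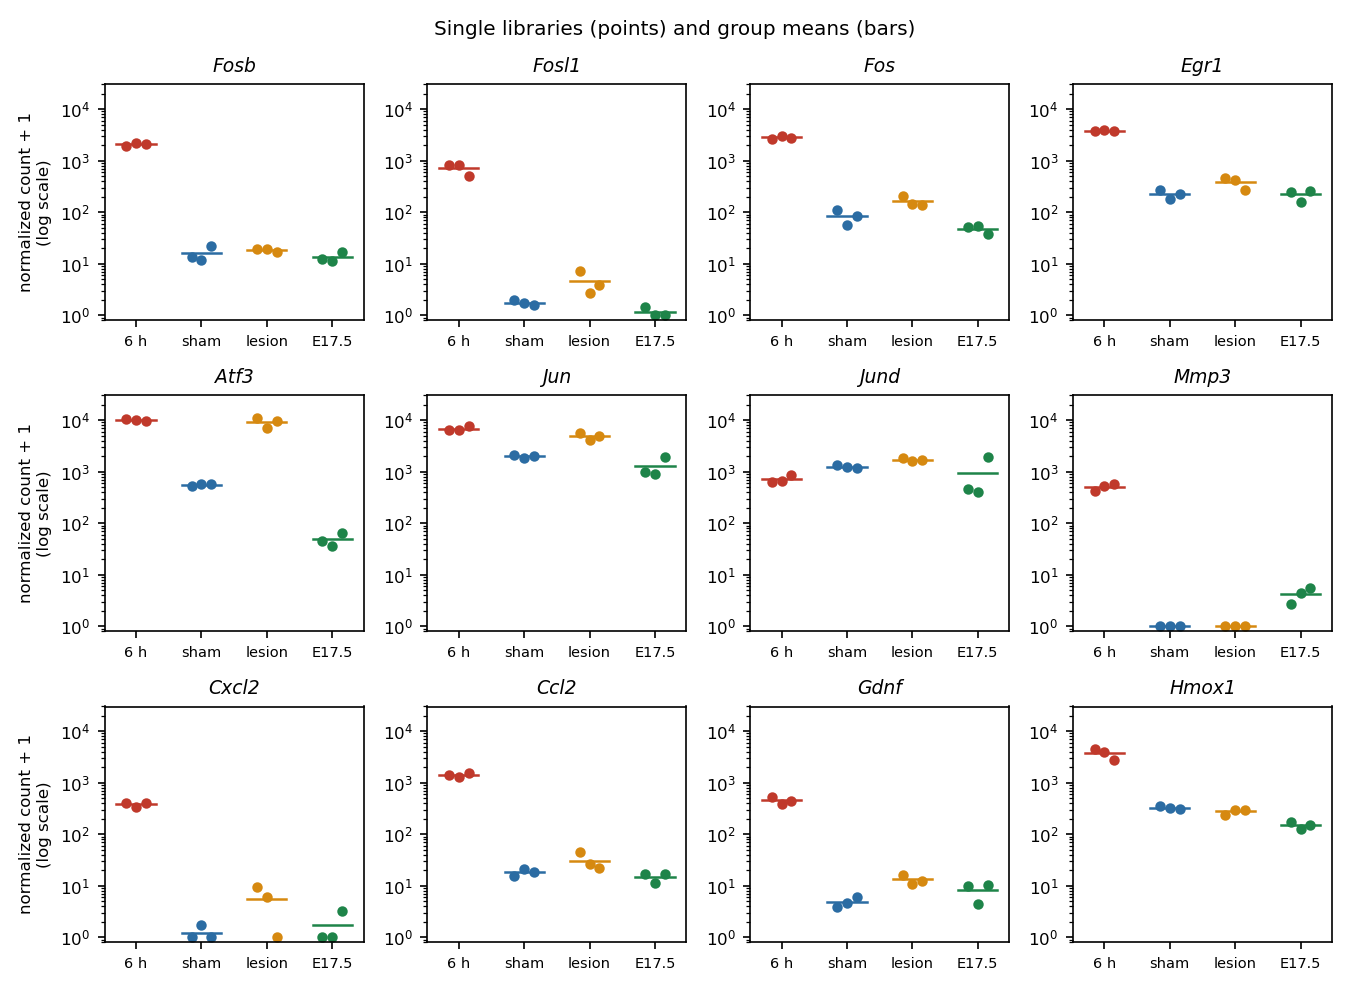
Normalized value plus 1 (log axis) of 12 genes in each library of 6 h culture, sham ganglia, lesioned ganglia and E17.5 ganglia, 3 libraries a group, with 1 point for each library. Fosb stands at 1947 to 2201 at 6 h and at 11.0 to 21.2 after sham surgery, whereas Atf3 averages 10153 at 6 h and 9207 after a peripheral lesion.

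The same genes were then compared with the lesioned ganglia, in which the axons had been injured inside the animal. Between 6 h culture and lesion 8213 of 14729 tested genes differed (55.8%), 4017 of them higher at 6 h and 4196 lower. Fosb averaged 17.5 ± 1.66 after lesion, Fos 164 ± 40.0 and Egr1 382 ± 98.1, and 6 h exceeded lesion by a log2 difference of 6.82 ± 0.15, 4.12 ± 0.15 and 3.35 ± 0.16 (limma adjusted p = 2.8e-13, 8.6e-11 and 6.3e-10). Atf3 averaged 9207 ± 1995 after lesion, and its difference of 0.16 ± 0.14 between 6 h and lesion did not pass the test (limma adjusted p = 0.322). Of the 35 immediate early genes tested here, 23 were higher at 6 h than after lesion and 4 were lower. In the E17.5 ganglia, from which 8142 of 14787 genes differed at 6 h (55.1%), Fosb averaged 12.7 ± 3.03 and Atf3 48.3 ± 15.0.

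The early genes were followed into the later cultures. Of 36 immediate early genes tested between 36 and 6 h, 11 were lower at 36 h and 6 were higher by limma, with a median log2 difference of 0.11. Fosb averaged 2083 ± 128 at 6 h, 952 ± 269.9 at 12 h, 146 ± 29.6 at 24 h and 43.9 ± 12.3 at 36 h. Fos averaged 1083 ± 108 and Egr1 1197 ± 196 at 36 h, both below 6 h (log2 differences of 36 h minus 6 h −1.38 ± 0.13 and −1.69 ± 0.17, limma adjusted p = 7.9e-07 and 9.4e-07) and still above the sham range. Atf3 averaged 8231 ± 518 at 36 h, a difference of −0.30 ± 0.13 from 6 h that did not pass the test (limma adjusted p = 0.0709). Between 6 and 36 h 7589 of 15006 tested genes differed (50.6%), 3794 of them higher at 36 h and 3795 lower. These values share the 6 h libraries with the comparison to sham.

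Genes that damp MAP kinase signalling, themselves induced by it, rose with the early genes. Dual specificity phosphatases remove phosphate from MAP kinases, and Sprouty and Spred proteins block the pathway upstream. Of 15 tested members 13 were higher and 0 were lower, with a median of 1.11. The lower count was 0 by edgeR and 0 by DESeq2, and 0 by limma at an unadjusted p of 0.05. Dusp10, a phosphatase for the stress kinases Jnk and p38, measured 657, 523 and 578 at 6 h and 96.4, 75.3 and 82.0 after sham surgery (2.78 ± 0.15, limma adjusted p = 1.1e-09). Spry2 measured 1276, 1109 and 1252 against 273, 241 and 292 (2.17 ± 0.12, limma adjusted p = 1.3e-09). Dusp1, which also belongs to the early genes, averaged 1131 ± 144 against 344 ± 53.1 (1.72 ± 0.14). Dusp6, a phosphatase for Erk, averaged 595 ± 65.2 and 582 ± 52.0 and did not pass the test (0.03 ± 0.12, limma adjusted p = 0.844). None of the values of Dusp10 or Spry2 overlapped between the groups.

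Cytokines and chemokines gave the highest median of the response lists. Of 22 listed signals between neurons and immune cells 20 were tested, 17 were higher and 1 was lower, with a median of 4.64. For members at a few reads in the sham ganglia the fitted difference depends on the pseudocount and is no bound. Such members passed the filter through the 6 h libraries alone and could only be called higher. The median and the higher count rest partly on them. Ccl2, which draws monocytes, measured 1391, 1291 and 1523 at 6 h and 14.8, 20.5 and 17.8 after sham surgery (6.24 ± 0.16, limma adjusted p = 7.8e-13), a ratio of means of 79.3. Tnf, an inflammatory cytokine, measured 415, 331 and 275 against 0, 1.46 and 2.29 (7.39 ± 0.39, limma adjusted p = 1.0e-09), and the neutrophil chemokine Cxcl2 measured 399, 338 and 409 against 0, 0.731 and 0 (8.31 ± 0.32, limma adjusted p = 4.4e-11). In all 3 genes the highest sham library was far under the lowest 6 h library. Cxcl1, the close relative of Cxcl2, averaged 164 ± 27.5 at 6 h. The interleukin Il6 measured 193, 197 and 243 against 1.97, 5.85 and 4.59 (5.44 ± 0.31, limma adjusted p = 2.6e-09).

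Csf1, the growth factor by which injured sensory neurons are known to act on microglia and macrophages, measured 1928, 1805 and 1555 at 6 h and 368, 393 and 459.9 after sham surgery (2.11 ± 0.12, limma adjusted p = 2.2e-09). It was higher still after lesion, with 2988 ± 672 (6 h minus lesion −0.74 ± 0.15, limma adjusted p = 6.5e-04), and it averaged 5080 ± 471 at 36 h. Il34, the other ligand of the same receptor, was the 1 signal called lower, with 205, 218 and 169 against 356, 356 and 309.7 (−0.79 ± 0.14, limma adjusted p = 2.1e-04). The 2 ligands of that receptor therefore differed in opposite directions, without overlap in either. After lesion Ccl2 averaged 29.7 ± 12.0, Tnf 4.17 ± 3.78 and Il6 3.91 ± 3.33. Of the 11 signals high enough to test between lesion and sham, 4 were higher after lesion and 0 were lower, with a median of 0.44. Among all 14556 genes tested there, 3043 were higher after lesion and 2947 were lower.

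NF-kB, the factor through which Tnf and many stresses act, induces its own inhibitors. Of 19 targets and feedback genes, all tested, 15 were higher and 0 were lower, with a median of 1.40. The lower count was 0 by edgeR and 0 by DESeq2, and 0 by limma at an unadjusted p of 0.05. After centring on GC 17 were higher and 1 was lower, the mitochondrial superoxide dismutase Sod2 (log2 difference −0.29, limma adjusted p = 0.00401, against 0.478 without centring), which was named after its values were seen. Tnfaip3, the ubiquitin-editing inhibitor A20, measured 757, 746 and 684 against 70.8, 79.0 and 93.5 (3.16 ± 0.14, limma adjusted p = 2.0e-10), and Nfkbia, which holds NF-kB in the cytoplasm, measured 741, 566 and 691 against 272, 219 and 262 (1.40 ± 0.14, limma adjusted p = 6.1e-07). Ptgs2, the inducible cyclooxygenase, measured 519, 496 and 455 against 5.90, 5.85 and 4.59 (6.26 ± 0.21, limma adjusted p = 9.4e-12). The 3 genes were high in all 6 h libraries and low in all sham libraries.

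Cxcl1, Cxcl2 and Nfkbia carry a short NF-kB motif close to the start of transcription, and their promoters are shown because the genes rose from very different sham levels. The bases are the 160 before the annotated start, on the strand of the gene, from RefSeq on GRCm38.p6, and capitals mark matches, on either strand, to the letters GGGA, any base and then TTTCC. Cxcl1 lies at chr5:90891085-90891244 (plus strand), Cxcl2 at chr5:90903739-90903898 (plus strand) and Nfkbia at chr12:55492648-55492807 (minus strand).
Cxcl1: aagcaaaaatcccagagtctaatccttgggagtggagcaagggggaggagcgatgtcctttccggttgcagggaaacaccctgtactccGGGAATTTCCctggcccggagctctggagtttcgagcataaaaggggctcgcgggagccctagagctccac
Cxcl2: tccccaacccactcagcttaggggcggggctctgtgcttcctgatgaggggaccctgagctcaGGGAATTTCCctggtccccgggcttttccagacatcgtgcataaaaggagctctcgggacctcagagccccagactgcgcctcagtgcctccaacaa
Nfkbia: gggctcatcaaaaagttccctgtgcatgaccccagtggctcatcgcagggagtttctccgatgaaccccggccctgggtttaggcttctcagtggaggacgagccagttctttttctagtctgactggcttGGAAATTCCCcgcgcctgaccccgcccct
The match begins 71 bases before the start in Cxcl1, 97 in Cxcl2 and 29 in Nfkbia, where it is on the opposite strand. In the 250 bases before the start, the motif was found in 4 of the 13 higher immune signals with a promoter in the table (30.8%). Among the 10789 tested genes with one it was found in 52 (0.482%). The AP-1 motif, searched as TGANTCA, was found in more of these signals, 5 of the 13 (38.5%), and in 614 of the 10789 (5.69%). Among all tested signals with a promoter, the NF-kB motif was found in 4 of 15 (26.7%) and the AP-1 motif in 5 (33.3%). The signals were chosen with earlier results of these data known, so shares above those of all genes may follow from the choice. They are no result of these data. A match is a string of letters and not a measured site, and AP-1, kB and the other motifs here were counted separately.

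Cytokines of the interleukin-6 family signal through gp130 to Stat3. Of 19 tested members 14 were higher and 1 was lower, with a median of 0.89. Lif, a ligand made by injured nerve, measured 333, 274 and 247 against 12.8, 8.04 and 16.1 (4.46 ± 0.25, limma adjusted p = 1.6e-09), and Socs3, the Stat3-induced brake, measured 1268, 1144 and 1044 against 259, 216 and 267 (2.22 ± 0.12, limma adjusted p = 1.7e-09). The shared receptor Il6st averaged 11063 ± 645 against 6286 ± 430.0 (0.82 ± 0.09, limma adjusted p = 3.9e-06). Cntfr, the receptor chain for ciliary neurotrophic factor, was the member called lower, with 131, 214 and 130.5 against 405, 339.9 and 431 (−1.33 ± 0.18, limma adjusted p = 2.0e-05). Ligand, receptor and brake thus stood higher in every 6 h library than in any sham library, and the ciliary neurotrophic factor receptor stood lower.

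Among matrix proteases and genes of the plasminogen system more members were higher than lower. Of 34 listed proteases and inhibitors 31 were tested, 21 were higher and 4 were lower, with a median of 0.93. Mmp3, stromelysin 1, was at 0 reads in all sham libraries and measured 413, 527 and 568 at 6 h (8.96 ± 0.29, limma adjusted p = 8.8e-12), at least 691-fold higher when the sham group is set at its floor of 3 reads over the group. Mmp13, a collagenase, measured 360.1, 429 and 554 against 1.97, 1.46 and 12.6 (6.57 ± 0.60, limma adjusted p = 3.0e-05), and without sham replicate 3, which holds the highest sham value, the difference was 7.35. Both genes were absent or nearly absent after lesion as well, where Mmp3 was at 0 and Mmp13 averaged 3.58 ± 2.34, and both averaged more at 36 h, with 2178 ± 272 and 1757 ± 493.

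Plaur, the urokinase receptor, measured 381, 454 and 490.1 at 6 h against 46.2, 42.4 and 47.6 (3.25 ± 0.16, limma adjusted p = 4.8e-10), and Plat, tissue plasminogen activator, averaged 628 ± 38.0 against 191 ± 14.4 (1.71 ± 0.12). The metalloprotease inhibitor Timp1 measured 163, 236 and 197 against 10.8, 4.39 and 5.73 (4.71 ± 0.30, limma adjusted p = 6.8e-09). All 3 genes were higher in every 6 h library than in any sham library. The gelatinases Mmp2 (87.4 ± 3.88 against 264 ± 33.6, log2 difference −1.58 ± 0.15) and Mmp9 (13.6 ± 1.08 against 54.8 ± 13.0, −1.91 ± 0.28) were lower, as were Mmp24 (−0.65 ± 0.12) and the inhibitor Serpine2 (−0.55 ± 0.10).

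The AP-1 motif, searched as TGANTCA on both strands, was found in the 250 bases before the start of 5 of the 12 higher proteases and inhibitors with a promoter in the table (41.7%), of 1 of 19 higher immediate early genes (5.26%) and of 614 of the 10789 tested genes with one (5.69%). Among all tested proteases and inhibitors with a promoter it was found in 5 of 18 (27.8%). Shares of this list above that of all genes may follow from its choice and are no result of these data. The promoters of 3 higher members and of Sprr1a are shown side by side because all 4 hold the motif. Sprr1a is an injury gene that was lower at 6 h. Capitals mark it in the 160 bases before the annotated start, on the strand of the gene, from RefSeq on GRCm38.p6. Mmp3 lies at chr9:7445662-7445821 (plus strand), Mmp13 at chr9:7272354-7272513 (plus strand), Plaur at chr7:24462323-24462482 (plus strand) and Sprr1a at chr3:92485882-92486041 (minus strand).
Mmp3: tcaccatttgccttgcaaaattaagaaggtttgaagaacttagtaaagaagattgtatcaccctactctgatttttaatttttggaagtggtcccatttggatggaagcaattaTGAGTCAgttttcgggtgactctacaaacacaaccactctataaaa
Mmp13: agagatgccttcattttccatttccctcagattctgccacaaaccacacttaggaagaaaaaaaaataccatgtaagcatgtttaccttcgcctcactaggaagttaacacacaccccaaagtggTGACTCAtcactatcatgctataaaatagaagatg
Plaur: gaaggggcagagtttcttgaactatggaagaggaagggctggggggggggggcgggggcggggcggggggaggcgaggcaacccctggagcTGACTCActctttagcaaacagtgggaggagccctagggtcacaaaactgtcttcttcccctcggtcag
Sprr1a: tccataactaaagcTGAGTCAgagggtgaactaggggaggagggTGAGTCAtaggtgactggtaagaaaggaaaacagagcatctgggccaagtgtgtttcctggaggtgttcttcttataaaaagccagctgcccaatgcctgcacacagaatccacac
The motif begins 46 bases before the start in Mmp3, 35 in Mmp13 and 69 in Plaur, and Sprr1a holds it at 146 and 116. Holding the letters did not go with one direction in these 4 genes.

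More injury and regeneration genes were higher than lower at 6 h, and some were not called. Of 50 listed genes 42 were tested, 30 were higher and 5 were lower, with a median of 0.96. Beside Atf3 and Jun, the cell surface receptor Tnfrsf12a (Fn14) measured 1789, 1553 and 1128 against 89.5, 88.5 and 79.1 (4.08 ± 0.16, limma adjusted p = 4.1e-11). Gadd45a, a stress gene induced in axotomized neurons, measured 3688, 2607 and 4108 against 339, 349 and 387 (3.25 ± 0.14, limma adjusted p = 2.5e-10). Sox11, a factor that promotes axon growth, and Flrt3, an adhesion molecule of growing axons, were chosen after their values were seen. Sox11 measured 3693, 2715 and 3325 against 290.3, 238 and 318 (3.52 ± 0.14), and Flrt3 measured 10979, 8896 and 10201 against 648, 667 and 641 (3.94 ± 0.10). Flrt3 was also higher at 6 h than after lesion, where it averaged 4289 ± 847 (1.24 ± 0.14, limma adjusted p = 3.7e-06).

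Several classic markers of the injured neuron were low at 6 h. Sprr1a, a small proline-rich protein that promotes outgrowth, measured 45.7, 29.7 and 14.1 at 6 h against 409, 355 and 643 after sham surgery (−4.03 ± 0.39, limma adjusted p = 2.7e-05), below every sham value. After lesion it averaged 19137 ± 4545, and in culture it averaged 247 ± 43.8 at 12 h, 1611 ± 98.9 at 24 h and 2979 ± 397 at 36 h. Npy, neuropeptide Y, which large injured neurons are known to start making, measured 0, 0.550 and 0 against 11.8, 11.7 and 15.5 (−3.59 ± 0.58, limma adjusted p = 9.8e-05) and averaged 428 ± 187 after lesion. Gal, the neuropeptide galanin, measured 92.9, 85.8 and 169 against 104, 68.7 and 148 and did not pass the test (0.11 ± 0.29, limma adjusted p = 0.757), with 1159 ± 384 after lesion and 687 ± 179 at 36 h.

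Gap43, the growth cone protein, averaged 3666 ± 215 at 6 h, 4323 ± 302 after sham surgery and 11375 ± 1923 after lesion. Its difference from sham was at the edge of the test (−0.24 ± 0.10, limma adjusted p = 0.0484) and missed it by edgeR (adjusted p = 0.0505) and DESeq2 (0.0887). By limma it also missed it without any one of 4 libraries: 6 h replicates 1 (adjusted p = 0.0568) or 2 (0.0951) and sham replicates 1 (0.197) or 2 (0.156). The other members called lower were Tubb3, described with the tubulins, and Hspb1, a small heat shock protein that injured neurons make, with 1193, 1249 and 1051 against 1493, 1555 and 1278 (−0.31 ± 0.11, limma adjusted p = 0.0288). Hspb1 missed the threshold without 6 h replicate 3 (adjusted p = 0.0624), sham replicate 1 (0.113) or sham replicate 2 (0.142), and after centring on GC it turned to 0.36. The count of lower members fell to 3 without sham replicate 1 or sham replicate 2. Against the lesioned ganglia 17 of 43 tested injury genes were higher at 6 h and 19 were lower. Among all 14729 genes tested there, 4017 were higher at 6 h and 4196 were lower. The comparison with lesion was not centred on GC.

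**Figure D4:**
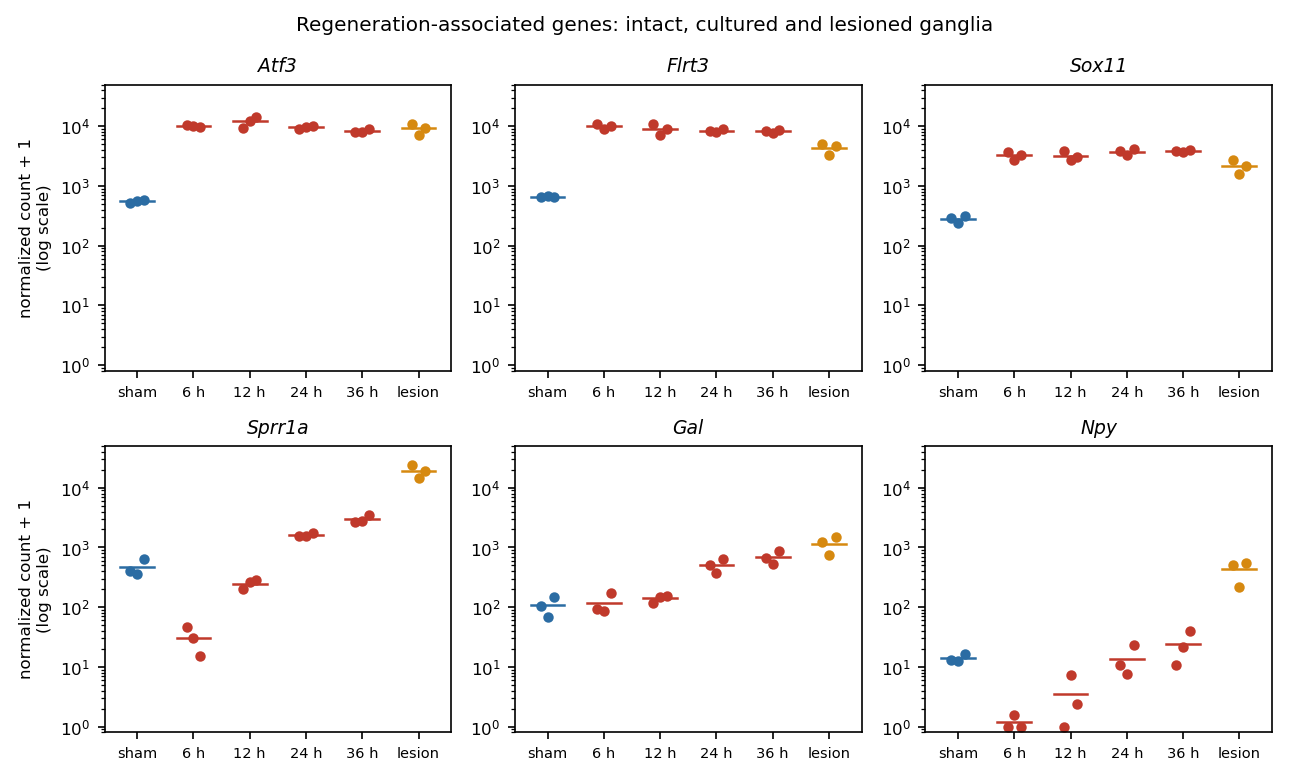
Normalized value plus 1 (log axis) of Atf3, Flrt3, Sox11, Sprr1a, Gal and Npy in each sham library, each culture library at 6, 12, 24 and 36 h and each lesion library, 3 libraries a group. Atf3, Flrt3 and Sox11 stand above sham in all culture groups, whereas Sprr1a, Gal and Npy are at or below sham at 6 h and highest after lesion.

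The integrated stress response, in which kinases that sense stress slow protein synthesis and raise the factor Atf4, was represented by 29 tested targets. Of these 24 were higher and 2 were lower, with a median of 1.26. Atf4 itself measured 6719, 5729 and 5441 at 6 h against 2394, 2442 and 2549 (1.27 ± 0.10, limma adjusted p = 8.7e-08). Its partner and target Ddit3, known as Chop, measured 1316, 1342 and 1125 against 278, 297 and 277 (2.14 ± 0.11, limma adjusted p = 1.1e-09). Trib3, a pseudokinase induced by Chop, measured 459.6, 396 and 317 against 70.8, 74.6 and 57.9 (2.50 ± 0.17, limma adjusted p = 1.6e-08). All 3 were higher in every 6 h library than in any sham library. The cystine transporter Slc7a11, which feeds glutathione synthesis and is also a target of Nrf2, measured 1907, 1769 and 1897 against 106, 178 and 102 (3.89 ± 0.18, limma adjusted p = 8.9e-10).

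The members called lower were Phgdh, the first enzyme of serine synthesis (145 ± 26.6 against 241 ± 29.9, −0.74 ± 0.16), and Ddit4, an inhibitor of mTOR (756 ± 32.4 against 1067 ± 72.0, −0.49 ± 0.10). After centring on GC neither was past the threshold (adjusted p = 0.0904 and 0.276), and with centring on GC and length Ddit4 stood at 0.01. The secreted proteins Gdf15 (54.8 ± 17.5 against 2.36 ± 1.79, 4.14 ± 0.44) and Stc2 (46.6 ± 8.69 against 1.72 ± 0.253, 4.12 ± 0.38) were among the members that rose most.

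The Atf4 element TGATGNAA (both strands) was searched in the 250 bases before the start. It was found in 6 of the 20 higher members with a promoter in the table (30%). Among all tested genes with one it was found in 271 of 10789 (2.51%), and among all tested members in 6 of 24 (25%). The list consists of Atf4 targets, so a share above that of all genes follows from its choice and is no result of these data. The promoters of Slc7a11, one of these members, and of Atf3, which is listed with the injury genes and not counted here, are shown because both hold the element and rose. Capitals mark the element in the 160 bases before the annotated start, on the strand of the gene, from RefSeq on GRCm38.p6, at chr1:191183334-191183493 for Atf3 and chr3:50443614-50443773 for Slc7a11, both on the minus strand.
Atf3: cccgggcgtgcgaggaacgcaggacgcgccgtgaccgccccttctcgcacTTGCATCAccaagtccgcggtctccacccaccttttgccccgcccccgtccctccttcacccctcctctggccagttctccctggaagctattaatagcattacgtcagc
Slc7a11: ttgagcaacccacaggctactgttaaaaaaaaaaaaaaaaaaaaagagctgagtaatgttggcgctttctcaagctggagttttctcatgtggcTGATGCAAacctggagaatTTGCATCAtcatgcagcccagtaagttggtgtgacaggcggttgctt
In Atf3 the match begins 110 bases before the start and lies on the opposite strand, and Slc7a11 holds one at 66 and one at 47, facing opposite ways.

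Genes of the oxidative stress factor Nrf2 were mixed. Of 29 tested members 19 were higher and 8 were lower, with a median of 0.54, and the lower count was 5 without sham replicate 2. Hmox1, the inducible haem oxygenase, measured 4584, 4022 and 2800 against 354, 317 and 309 (3.51 ± 0.15, limma adjusted p = 4.1e-10). Nqo1, a quinone reductase, measured 468, 416 and 483 against 122, 142 and 142 (1.75 ± 0.13, limma adjusted p = 5.2e-08), and the subunits of glutamate cysteine ligase, Gclc and Gclm, differed by 0.95 ± 0.11 and 1.00 ± 0.11. These 4 genes were higher in every 6 h library. The glutathione-using enzymes Gpx1 (1034 ± 210.0 against 2323 ± 185, −1.18 ± 0.14) and Gstm1 (172 ± 18.4 against 374 ± 24.1, −1.12 ± 0.13) were lower.

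Heat shock genes were split as well, with 16 of 28 higher, 6 lower and a median of 0.31. The lower count was 2 without sham replicate 1, 3 without sham replicate 2 and 3 without sham replicate 3, and it was 3 by DESeq2 and after centring on GC. The inducible Hsp70 genes Hspa1a (734, 898 and 729.9 against 274, 284 and 264, 1.51 ± 0.12) and Hspa1b (1003, 1165 and 1065 against 295, 316 and 279, 1.86 ± 0.11) were higher (limma adjusted p = 8.2e-08 and 4.4e-09). They are nearly identical copies whose shared reads may have been split, so their separate values are uncertain. The constitutive member Hspa8 averaged 19210 ± 1290 against 24397 ± 1871 and was lower (−0.34 ± 0.09, limma adjusted p = 0.00578).

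In the endoplasmic reticulum 11 of 26 tested chaperone and unfolded protein response genes were higher and 1 was lower, with a median of 0.22. Hspa5, the main chaperone BiP, measured 11725, 9936 and 11657 against 5131, 6057 and 4504 (1.09 ± 0.11, limma adjusted p = 1.5e-06), and its partner Dnajb9 differed by 1.76 ± 0.14. Pdia4, a disulphide isomerase, was the 1 lower member (−0.71 ± 0.12), and 2 were lower after centring on GC. The other 14 were not called. The metal-binding Mt1 (895 ± 168 against 261 ± 22.0, 1.76 ± 0.14) and Mt2 (1002 ± 79.5 against 146 ± 12.9, 2.77 ± 0.12) and the zinc exporter Slc30a1 (1.62 ± 0.13) were higher, and the brain form Mt3 (−1.05 ± 0.14) and ceruloplasmin, Cp (−0.51 ± 0.11), were lower, among 8 tested genes of metal handling.

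The tumour suppressor p53 acts on cell cycle and death genes. Of 31 tested targets and apoptosis genes 20 were higher and 4 were lower, with a median of 0.70. Mdm2, the ligase that limits p53, measured 2697, 2154 and 2292 against 592, 558 and 546 (2.07 ± 0.11, limma adjusted p = 1.1e-09), and the death receptor Tnfrsf10b measured 225, 199 and 187 against 10.8, 13.2 and 17.2 (3.81 ± 0.23, limma adjusted p = 3.2e-09). The cell cycle inhibitor Cdkn1a averaged 3124 ± 561 against 1442 ± 80.9 (1.10 ± 0.12). Those called lower were the neuronal death gene Hrk (11.8 ± 4.11 against 40.2 ± 6.66, −1.73 ± 0.33), Bmf (−1.07 ± 0.19), Sesn1 (−1.65 ± 0.14) and Phlda3 (−0.71 ± 0.11), the last of which stood at −0.04 after centring on GC (adjusted p = 0.805). Hrk was at 249 ± 56.1 after lesion, above both other groups.

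Genes of sugar use were mostly lower, with 4 of 21 glycolysis genes higher, 12 lower and a median of −0.31, and the lower count fell to 6 after centring on GC. Among the higher genes, the hexokinase Hk2 measured 417, 351 and 384 against 44.3, 46.8 and 47.6 (3.03 ± 0.15, limma adjusted p = 7.5e-10), and the monocarboxylate transporter Slc16a1 (1.65 ± 0.10) and the glucose transporters Slc2a3 (0.82 ± 0.10) and Slc2a1 (0.68 ± 0.11) were also higher. The aldolase Aldoc measured 723, 812 and 716 against 1843, 1935 and 1839 (−1.32 ± 0.10, limma adjusted p = 5.3e-08) and the lactate dehydrogenase chain Ldhb averaged 1142 ± 278 against 2481 ± 245 (−1.14 ± 0.15). Of 21 tested hypoxia response genes 9 were higher and 5 were lower. Among them, Hif1a (2771 ± 496 against 1041 ± 132, 1.40 ± 0.13) and Vegfa (1659 ± 102 against 884 ± 56.9, 0.91 ± 0.10) rose, and Mxi1 (−1.13 ± 0.12) fell.

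Genes that build ribosomes rose together. Of 35 members, all tested, 29 were higher and 0 were lower, with a median of 0.97. The lower count was 0 by edgeR and 0 by DESeq2, and 0 by limma at an unadjusted p of 0.05. Ncl, nucleolin, measured 7132, 6423 and 7860 against 2428, 2620 and 2214 (1.56 ± 0.11, limma adjusted p = 1.4e-08), Ddx21, a nucleolar helicase, measured 2828, 2214 and 2687 against 535, 509 and 594 (2.23 ± 0.12, limma adjusted p = 9.5e-10), and Npm1, nucleophosmin, averaged 1380 ± 308 against 546 ± 22.2 (1.31 ± 0.14). Each 6 h library stood above each sham library in the 3 genes. Of 59 tested ribosomal proteins 29 were higher and 4 were lower, with a median of 0.36. Without sham replicate 3 the higher count was 19, and after centring on GC the lower count was 1. Rps6 measured 1802, 1461 and 1714 against 1102, 1044 and 899.8 (0.71 ± 0.12, limma adjusted p = 1.0e-04).

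Oxidative phosphorylation genes differed little: 3 of 56 were higher and 15 were lower, under the background share on both sides, with a median of −0.10. The median turned to 0.07 without 6 h replicate 1, when 11 were higher, while the higher count was 0 without 6 h replicate 3 or sham replicate 1, and 1 without sham replicate 3. Uqcrq, a subunit of complex III, was lower, with 225, 244 and 219 against 863, 968 and 710.0 (−1.87 ± 0.13, limma adjusted p = 2.1e-08). Atp5a1, the alpha chain of ATP synthase, averaged 5742 ± 377 against 4954 ± 152 and did not pass the test (0.21 ± 0.09, limma adjusted p = 0.0644), but passed it by DESeq2 (adjusted p = 0.0145) and after centring on GC (1.9e-04). In cholesterol synthesis 2 of 25 genes were higher and 10 were lower. The higher count ranged from 1 without sham replicate 1, 2 or 3 to 4 without 6 h replicate 2 and was 6 after centring on GC. Cyp51 was higher in the full comparison (2915 ± 313 against 2002 ± 190.3, 0.54 ± 0.11).

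The 8 largest falls of the mean value included 6 tubulin and neurofilament genes. Tuba1a, the main neuronal alpha tubulin, measured 18020, 17088 and 17077 at 6 h against 74595, 73455 and 65058 (−2.03 ± 0.09, limma adjusted p = 1.7e-10). Tubb3, the neuronal beta tubulin, measured 21652, 23673 and 18670 against 67469, 65314 and 59472 (−1.59 ± 0.10, limma adjusted p = 6.7e-09), and Tubb4a, another beta tubulin, measured 2744, 3145 and 3015 against 14650, 15769 and 15797 (−2.38 ± 0.09, limma adjusted p = 5.4e-11). The ratios of means, sham to 6 h, were 4.08, 3.00 and 5.19 with no overlap, and after lesion Tuba1a averaged 90510 ± 9171 and Tubb3 81247 ± 8906. The alpha tubulins are close paralogs whose shared reads may have been split. Of 41 tested genes of microtubules 7 were higher and 18 were lower. The higher count was 13 after centring on GC, which turned the median from −0.20 to 0.03. The microtubule-associated kinase Dclk1 (9168 ± 939 against 4045 ± 244, 1.18 ± 0.10) and doublecortin, Dcx (356 ± 64.8 against 165 ± 17.1, 1.10 ± 0.15), both of growing neurites, rose. Map1b and Stmn2 did not pass the test (limma adjusted p = 0.274 and 0.0564), but Stmn2 stood at −0.36 after centring on GC and passed (adjusted p = 1.1e-04), as it did without 6 h replicate 3 (0.0203).

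Intermediate filament genes differed from sham in both directions. The neurofilament chains of large axons were lower, Nefl with 34989, 48202 and 51717 against 101370, 106543 and 95977 (−1.19 ± 0.12, limma adjusted p = 1.7e-06) and Nefh with 28242, 36211 and 35077 against 78822, 87527 and 76306 (−1.29 ± 0.10, limma adjusted p = 9.2e-08). Nes, the nestin of progenitors and activated glia, measured 11135, 8792 and 8448 against 903, 1012 and 709 (3.44 ± 0.14, limma adjusted p = 8.1e-11), and Vim, vimentin, averaged 12959 ± 832 against 6648 ± 236 (0.96 ± 0.09). Gfap, a glial filament, rose from 21.3 ± 2.03 to 156 ± 17.5 (2.81 ± 0.20), and the nuclear lamins Lmna (1.12 ± 0.11) and Lmnb1 (0.98 ± 0.20) were higher. With these 5 higher and 7 lower, all 12 tested members were called. The median of this list, −0.41, turned to 0.01 after centring on GC. Of 44 genes of the growth cone and actin 23 were higher and 10 were lower. The membrane linker Ezr (1977 ± 135 against 436 ± 48.5, 2.18 ± 0.11) and the tropomyosin Tpm4 (1.32 ± 0.11) rose, and Actb averaged 12793 ± 952 against 12585 ± 829 without passing the test.

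Potassium channels, which hold the neuron at rest and end its spikes, leaned downward, with 11 of 59 tested genes higher, 33 lower and a median of −0.46. The higher count was 7 without sham replicate 2. Kcnd1, an A-type channel, averaged 1243 ± 249 against 1805 ± 77.2 (−0.56 ± 0.13). Kcnj10, the inward rectifier of satellite glia rather than of neurons, measured 274, 226 and 183 against 1749, 1810 and 1881 (−3.01 ± 0.14, limma adjusted p = 2.1e-10). Of the calcium-activated big conductance channel, the pore gene Kcnma1 (398 ± 14.8 against 247 ± 26.2, 0.69 ± 0.13) and the subunit Kcnmb2 (0.81 ± 0.18) were higher. Both named losses and both named gains were without overlap between the groups.

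Voltage-gated sodium channels, which carry the upstroke of the spike, gave 5 higher and 5 lower of 16 tested. The higher count was 3 without sham replicate 1 or 3, and the lower count was 3 without 6 h replicate 1 or sham replicate 2 or 3. The nociceptor channels Scn11a, with 10148, 9425 and 7860 against 5188, 5100 and 5170 (0.82 ± 0.10, limma adjusted p = 9.5e-06), and Scn9a, with 12764, 12581 and 15218 against 8728, 8757 and 8962 (0.61 ± 0.10, limma adjusted p = 7.8e-05), were higher. Scn10a averaged 16019 ± 1778 against 14233 ± 789.6 and did not pass (0.17 ± 0.10, limma adjusted p = 0.17), although it did after centring on GC (adjusted p = 0.00476) or without 6 h replicate 3 (0.0133). Scn1a, the channel of large myelinated neurons, measured 1693, 2181 and 2645 against 3369, 3697 and 3769 (−0.75 ± 0.14, limma adjusted p = 2.5e-04). At 36 h Scn11a averaged 987 ± 30.8, far under both groups.

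Calcium channel genes gave 7 higher and 7 lower of 19 tested, with a median of −0.15 that turned to 0.10 after centring on GC. The alpha2delta subunits carry the channels to the membrane, and Cacna2d1 is the target of gabapentin. Cacna2d1 measured 5588, 4481 and 5691 at 6 h and 3681, 3232 and 4038 after sham surgery (0.52 ± 0.12, limma adjusted p = 0.00132), against 11377 ± 2016 after lesion. With centring on GC and length its difference was 0.13 and no longer passed (adjusted p = 0.169). Cacna2d2 measured 224, 222 and 197 against 322, 314 and 337 and was lower (−0.59 ± 0.13, limma adjusted p = 9.9e-04). Cacna2d3 measured 65.3, 119 and 113 against 107, 105 and 106 and did not pass (−0.15 ± 0.21, limma adjusted p = 0.579). Cacna2d4, at 0 to 2.20 in the 6 libraries, was too low to be tested. The neuronal pore genes Cacna1b, of the N-type channel (2531 ± 172 against 1306 ± 118, 0.96 ± 0.10), and Cacna1c, of the L-type channel (0.91 ± 0.14), rose.

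Genes of the sensory subtypes did not move as one. Of 34 tested genes of mechanoreceptors and proprioceptors 2 were higher and 24 were lower, with a median of −0.72. Pvalb, the calcium buffer parvalbumin of proprioceptors, measured 164, 231 and 272 against 929, 897 and 859.7 (−2.04 ± 0.16, limma adjusted p = 5.1e-08), and Runx3, the factor that specifies them, measured 78.4, 69.8 and 102 against 230.3, 246 and 253 (−1.55 ± 0.17, limma adjusted p = 2.1e-06). The receptors Ntrk2 (−0.15 ± 0.10, limma adjusted p = 0.212) and Ntrk3 (0.25 ± 0.15, limma adjusted p = 0.163), also on this list, did not pass the test. Pvalb and Runx3 were lower in each 6 h library than in each sham library, while the libraries overlapped for Ntrk2 and Ntrk3. Ntrk2 passed after centring on GC (log2 difference −0.22, limma adjusted p = 0.0245) and Ntrk3 without 6 h replicate 1 (0.40, adjusted p = 0.0348). The 2 higher members were Ptprt (0.84 ± 0.12), a receptor phosphatase, and the adhesion gene Cdh1 (0.66 ± 0.11), which missed the threshold with all 24 libraries in the fit (adjusted p = 0.0789).

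Nociceptor and itch genes gave 18 higher, 14 lower and 11 not called of 43, with a median of −0.07, and with all 24 libraries in the fit 9 were higher and 6 were lower. Calca, which encodes the peptide CGRP, averaged 13292 ± 943 against 10499 ± 758 (0.34 ± 0.10, limma adjusted p = 0.00672, or 0.0713 with all 24 libraries in the fit), and Mrgprd, of nonpeptidergic nociceptors, averaged 3765 ± 604 against 4353 ± 30.4 and did not pass (−0.22 ± 0.11, limma adjusted p = 0.105, or 0.0206 without 6 h replicate 1). Adcyap1, which encodes the injury-induced peptide PACAP, measured 5052, 3801 and 5807 against 1627, 1311 and 1506 (1.71 ± 0.14, limma adjusted p = 1.5e-07), and the lysophosphatidic acid receptor Lpar3 averaged 1366 ± 198 against 787 ± 32.0 (0.79 ± 0.12). Trpm8, the cold channel, measured 79.9, 95.1 and 91.7 against 211, 236 and 244 (−1.36 ± 0.15, limma adjusted p = 2.9e-06), and Mrgprx1, an itch receptor of a family of close copies, measured 147, 155 and 109 against 393, 417 and 394 (−1.56 ± 0.15, limma adjusted p = 6.1e-07). By 36 h the levels of Lpar3 and Mrgprx1 averaged 40.8 ± 18.8 and 3.70 ± 0.605.

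Among 34 tested transcription factors of sensory neurons 6 were higher and 16 were lower, and the higher count was 3 without sham replicate 2 or 3. Isl1, which maintains sensory identity, measured 720.2, 548 and 688 against 1573, 1632 and 1664 (−1.32 ± 0.12, limma adjusted p = 2.3e-07), and Shox2, of low threshold mechanoreceptors, averaged 17.2 ± 10.2 against 91.3 ± 16.3 (−2.49 ± 0.35). Runx1, the factor of nonpeptidergic nociceptors, measured 2835, 2238 and 2712 against 1221, 1094 and 1382 and rose (1.07 ± 0.12, limma adjusted p = 2.4e-06). Runx1 and Runx3 thus differed from sham in opposite directions.

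Release machinery gave 14 higher and 19 lower of 51 tested, the higher count being 8 without sham replicate 2. The vesicle fusion protein Vamp1 measured 6781, 8290 and 8135 against 15254, 16856 and 15711 (−1.05 ± 0.10, limma adjusted p = 5.4e-07), and Syt4, a synaptotagmin induced by activity, measured 24912, 19345 and 25634 against 9877, 9360 and 9153 (1.29 ± 0.11, limma adjusted p = 1.5e-07). The vesicular glutamate transporters parted, Slc17a7 of large neurons falling (929.9 ± 178 against 2419 ± 143, −1.39 ± 0.13) and Slc17a6 of most sensory neurons rising (8300 ± 1105 against 4252 ± 137, 0.96 ± 0.11). Of 29 tested glutamate and GABA receptor genes 3 were higher and 13 were lower, the higher count being 1 without 6 h replicate 1 or sham replicate 1 or 2. Grin1, the obligate NMDA receptor chain, averaged 483 ± 129 against 1046 ± 43.4 (−1.14 ± 0.15).

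Trophic factors were divided, with 15 of 41 tested higher, 17 lower and a median of −0.02. A difference of at least 2-fold was reached by 5 of the higher and 9 of the lower members. Gdnf, a survival factor for nociceptors, measured 538, 378 and 441 at 6 h against 2.95, 3.66 and 5.16 (6.53 ± 0.25, limma adjusted p = 4.1e-11), a ratio of means of 115. Inhba, an activin chain, measured 111, 151 and 152 against 9.84, 6.58 and 3.44 (4.27 ± 0.32, limma adjusted p = 4.6e-08). Both were near 0 in the sham ganglia and clearly detected in all 6 h libraries. Bdnf, made by nociceptors, rose from 1117 ± 167 to 2135 ± 329 (0.93 ± 0.13, limma adjusted p = 2.9e-05). Cntf, the factor of myelinating Schwann cells, measured 109.6, 79.7 and 95.2 against 645, 787 and 582 (−2.81 ± 0.16, limma adjusted p = 1.7e-09), and Bmp7 measured 21.8, 11.0 and 10.6 against 121, 143 and 103 (−3.05 ± 0.28, limma adjusted p = 4.1e-07).

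Guidance genes gave 14 higher and 25 lower of 61 tested. Sema6a measured 1168, 1215 and 1178 against 236, 273 and 323 (2.11 ± 0.12, limma adjusted p = 3.3e-09) and was higher still after lesion (2646 ± 500.3), while the ephrin Efnb3 averaged 12.4 ± 1.99 against 56.1 ± 7.88 (−2.09 ± 0.27). The semaphorin receptor Nrp2 rose (1617 ± 104 against 798 ± 46.4, 1.02 ± 0.10), and the receptors Robo1 and Plxna1 did not pass the test (limma adjusted p = 0.401 and 0.85), although Plxna1 stood at 0.40 after centring on GC and passed (adjusted p = 0.00215).

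Of 28 receptors of the matrix and related genes 13 were higher and 7 were lower. Itga5, the fibronectin receptor chain, measured 316, 372 and 282 against 25.6, 27.0 and 33.3 (3.45 ± 0.18, limma adjusted p = 1.1e-09), and its coreceptor Sdc4, syndecan 4, measured 6661, 5327 and 4834 against 736, 844 and 773 (2.83 ± 0.12, limma adjusted p = 1.2e-10). The laminin receptor chains Itgb1 (0.48 ± 0.09) and Itga7 (1971 ± 426 against 1269 ± 102, 0.62 ± 0.13) rose less, and Itga7 stood at 5022 ± 1037 after lesion and 12867 ± 907 at 36 h. Tnc, tenascin C, a matrix protein of wounds, measured 2104, 2080 and 1721 against 51.2, 31.4 and 49.9 (5.47 ± 0.17, limma adjusted p = 6.2e-12). Collagens and laminins went the other way, with 11 of 40 higher, 23 lower and a median of −0.62. Col1a1 measured 55.2, 79.2 and 63.5 against 534, 419.6 and 374 (−2.73 ± 0.18, limma adjusted p = 8.7e-09), and Col12a1, a collagen of tissue under load, rose (1606 ± 120.2 against 386 ± 42.0, 2.06 ± 0.12).

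Markers of most non-neuronal cells were lower at 6 h, and their part in the results above was not tested. Summed over 17 markers, myelinating Schwann cells gave 24587 to 33559 units in the 6 h libraries and 77046 to 96405 in the sham libraries, and 14 of the 17 were lower. The 3 that rose were Gldn, gliomedin of the node (1438 ± 222 against 380.0 ± 49.3, 1.91 ± 0.13), Gjb1, connexin 32 (474 ± 116 against 150.5 ± 34.8, 1.65 ± 0.20), and Egr2, the master factor of myelination (0.39 ± 0.14), the last of which missed the threshold without 6 h replicate 1 (adjusted p = 0.133) or sham replicate 2 (0.156). For the whole Schwann cell lineage the sums were 52148 to 52594 and 60100 to 61932, with 5 of 12 tested markers lower and 2 higher, or 4 higher after centring on GC. Sox10, its defining factor, averaged 1419 ± 250.1 against 1331 ± 119 and did not pass the test (0.08 ± 0.13, limma adjusted p = 0.614), but after centring on GC it stood at 0.75 and passed (adjusted p = 3.8e-05).

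Satellite glia sums were 27658 to 30352 at 6 h and 63557 to 72302 after sham surgery, and 12 of 14 markers were lower. Fabp7, a lipid carrier of these glia, measured 209, 156 and 268 against 1775, 1466 and 1290 (−2.86 ± 0.18, limma adjusted p = 1.6e-08). Fibroblast and perineurium sums were 5440 to 5829 and 11255 to 13735, with 13 of 17 lower, among them Dcn, decorin (1387 ± 235 against 4479 ± 492, −1.70 ± 0.13). Pericyte sums were 2076 to 2471 and 2818 to 3261, with 8 of 12 lower. The pericyte receptor Pdgfrb averaged 346 ± 16.3 against 391 ± 13.1 and did not pass (−0.18 ± 0.12, limma adjusted p = 0.206).

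Macrophage sums were 993 to 1135 at 6 h, 2952 to 3134 after sham surgery and 5639 to 7811 after lesion, and 13 of 18 tested markers were lower than in sham. Csf1r, the receptor of Csf1, measured 29.8, 28.0 and 21.2 against 199.8, 175 and 189.8 (−2.80 ± 0.20, limma adjusted p = 2.3e-08), and C1qa, a complement chain of resident macrophages, measured 29.8, 15.4 and 38.8 against 293, 317 and 263 (−3.42 ± 0.27, limma adjusted p = 1.2e-07). The pan-leukocyte gene Ptprc did not pass (46.8 ± 8.34 against 48.4 ± 10.3, −0.04 ± 0.24, limma adjusted p = 0.9), and Cd14, an endotoxin receptor, was the 1 marker called higher (177 ± 17.1 against 37.5 ± 3.37, 2.20 ± 0.18), with 2 called higher when 6 h replicate 3 was left out, after centring on GC, and by edgeR or DESeq2. The rise of the chemokines described above thus stood beside lower macrophage markers, and the cell type that made these transcripts was not tested. Of the neutrophil and mast cell markers 8 of 10 were lower and 1 listed gene was at 0 in all 6 h libraries. Erythroid sums were 815 to 1173 against 5836 to 6503, and 8 of 9 were lower. All 5 tested skeletal muscle markers were lower, among them Pvalb, which is counted with the proprioceptor genes as well. Muscle sums without Pvalb were 25.4 to 42.9 against 157 to 290.2. Of 14 lymphocyte markers 3 were tested, 1 higher and 1 lower, the latter not passing without sham replicate 2, and 2 were at 0 in all 6 h libraries. Lymphocyte sums were low in both groups and were not lower at 6 h (67.5 to 98.7 against 61.9 to 82.6).

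Endothelial markers were also not lower as a sum, with 4164 to 5016 at 6 h and 3435 to 4099 after sham surgery, 7 of 18 higher and 6 lower. The junction genes Cdh5 (1361, 1249 and 934 against 273, 271 and 329, 2.01 ± 0.14) and Pecam1 (1020, 782 and 807 against 336, 310.0 and 347, 1.38 ± 0.13) rose (limma adjusted p = 2.3e-08 and 3.1e-07), and Ramp2, a coreceptor of adrenomedullin, fell (55.7 ± 9.24 against 216 ± 28.4, −1.94 ± 0.18). General neuron markers summed to 127565 to 133229 against 195965 to 204621, with 2 of 18 higher and 10 lower. The higher count was 1 without 6 h replicate 3 or any single sham library, and 4 after centring on GC. Snap25, of the release machinery, averaged 20576 ± 3437 against 27899 ± 1451 (−0.45 ± 0.11, limma adjusted p = 0.00278), and Elavl4, a neuronal RNA-binding protein, averaged 3761 ± 657 against 7232 ± 338 (−0.96 ± 0.12). Neuron sums were thus lower in every 6 h library than in any sham library, while the median log2 difference of the list was −0.27. Tubb3 is one of these markers, and without it the sums were 105783 to 114558 against 136493 to 137784.

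**Figure D5:**
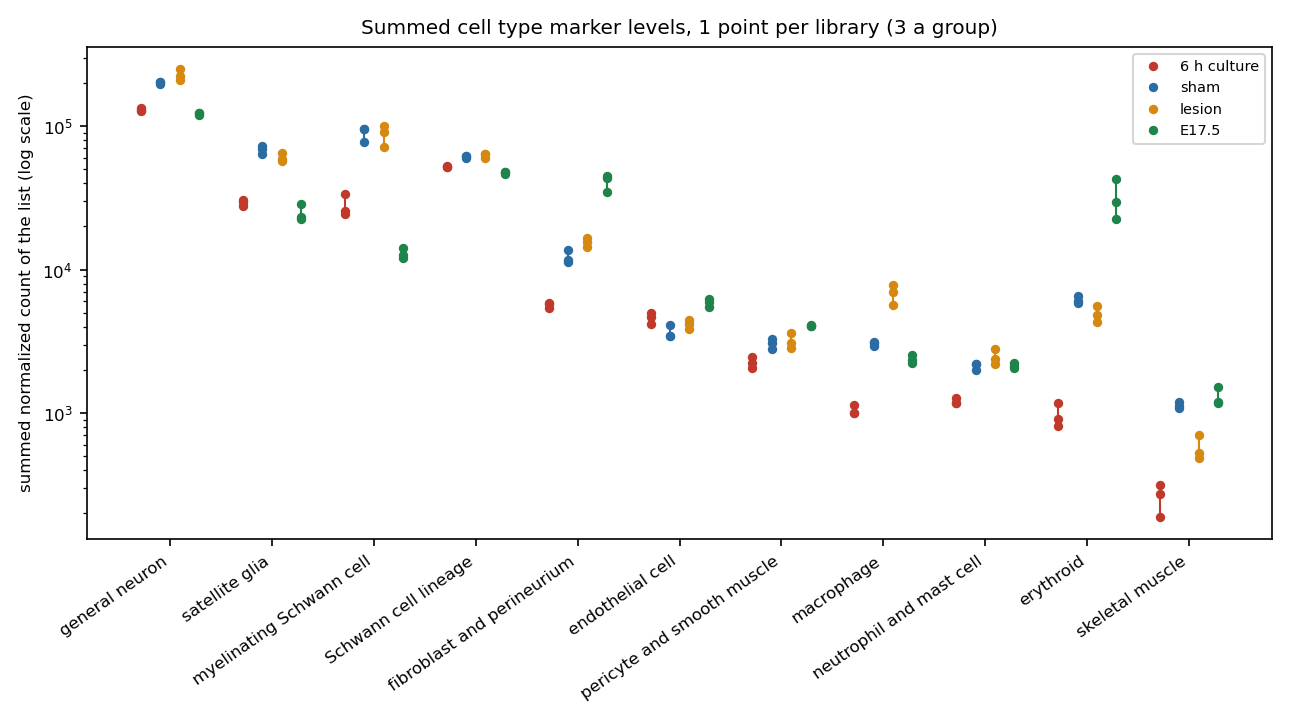
Sum of the normalized values of the marker genes of 11 cell types (log axis) in each library of 6 h culture, sham, lesioned and E17.5 ganglia, 3 libraries a group. The 6 h libraries lie below the sham libraries for every cell type drawn except endothelial cells, and macrophage sums are highest after lesion. Lymphocyte and adipocyte sums are not drawn.

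Markers of dividing cells were few and mixed. Of 38 tested cell cycle genes 10 were higher, 7 were lower and 21 were not called, the higher count being 6 without sham replicate 1 or 2. Mki67, the marker of cycling cells, averaged 201 ± 9.55 against 187 ± 35.3 and did not pass (0.12 ± 0.16, limma adjusted p = 0.543), Top2a fell (4.89 ± 1.27 against 31.9 ± 8.01, −2.47 ± 0.38) and the spindle gene Tpx2 rose (111 ± 5.28 against 38.9 ± 5.00, 1.49 ± 0.20).

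Clock genes moved in both directions. Of 18 tested 8 were higher and 4 were lower. Per2 (319.7 ± 15.2 against 128 ± 11.8, 1.31 ± 0.14), Cry1 (264 ± 36.4 against 76.5 ± 5.42, 1.77 ± 0.16) and the repressor Nfil3, with 1002, 895 and 807 against 105, 118 and 151 (2.85 ± 0.15, limma adjusted p = 9.4e-10), were higher. The 4 lower genes were Per3, with 46.5, 40.1 and 31.7 against 187, 215 and 251 (−2.44 ± 0.20, limma adjusted p = 8.5e-08), and the output factors Dbp (−2.04 ± 0.23), Hlf (−1.70 ± 0.18) and Tef (−0.63 ± 0.10). The hour of collection is not given in the sources used here, and its part was not tested.

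Interferon response and antigen presentation genes gave 17 higher and 6 lower of 30 tested. Rsad2, viperin, measured 4496, 3337 and 4704 against 196, 414 and 213 (3.99 ± 0.28, limma adjusted p = 8.1e-06), and Mx1 measured 160.5, 137 and 145 against 14.8, 55.6 and 13.8 (2.65 ± 0.44, limma adjusted p = 5.1e-04). Sham replicate 2 was the highest of the sham libraries for both, and without it Mx1 differed by 3.28. B2m, the light chain of class I molecules, averaged 4137 ± 551 against 2100 ± 170.5 (0.97 ± 0.11), and the class II gene H2-Aa fell (119 ± 11.3 against 344 ± 55.8, −1.51 ± 0.15). Of 13 tested glucocorticoid targets 5 were higher and 7 were lower. Tsc22d3, known as Gilz, measured 2250, 2301 and 2179 against 4452, 4279 and 4997 (−1.03 ± 0.10, limma adjusted p = 5.0e-07), Sgk1 rose (719.9 ± 16.9 against 488 ± 82.0, 0.57 ± 0.13) and Fkbp5 did not pass (−0.26 ± 0.13, limma adjusted p = 0.107).

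Some of the strongest differences lay outside the lists. Cyp1a1, a monooxygenase induced by the aryl hydrocarbon receptor, measured 2307, 1952 and 1566 at 6 h against 3.94, 3.66 and 4.01 (8.62 ± 0.19, limma adjusted p = 1.8e-13), a ratio of means of 502. Irg1, the itaconate-making enzyme of activated macrophages, measured 421, 323 and 289 against 0, 1.46 and 1.72 (7.50 ± 0.37, limma adjusted p = 5.6e-10). Cd207, a lectin known from Langerhans cells, measured 338, 198 and 243 against 0, 0 and 1.72 (7.51 ± 0.41, limma adjusted p = 1.4e-09). All were at or near 0 after sham surgery and clearly detected in all 6 h libraries. The adhesion receptor Cd44, with 18835, 14353 and 16100 against 4240, 4138 and 4811 (1.90 ± 0.11, limma adjusted p = 2.7e-09), and the chloride channel protein Clic4, with 14097, 11250 and 11389 against 1970, 2222 and 2152 (2.53 ± 0.11, limma adjusted p = 1.2e-10), were among the 8 genes with the largest rise of the mean value.

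Among the deepest falls, Wnt6 measured 3.63, 2.75 and 7.05 at 6 h against 201, 177 and 139 (−5.04 ± 0.31, limma adjusted p = 5.8e-09) and its receptor class was represented by Fzd2, with 22.5, 18.1 and 7.05 against 217, 248 and 204 (−3.86 ± 0.32, limma adjusted p = 3.4e-07). G0s2, an inhibitor of lipid breakdown, measured 2.90, 7.70 and 10.6 against 148, 138 and 129.6 (−4.25 ± 0.35, limma adjusted p = 1.0e-07). These 3 were lower in each 6 h library than in any sham library by a wide margin. Apoe, the lipid carrier made by glia, was among the largest losses in value, from 37758 ± 4140 to 13887 ± 1313 (−1.44 ± 0.10, limma adjusted p = 2.7e-08). Between lesion and sham, which share the sham libraries with this comparison, 5990 of 14556 tested genes differed (41.2%), and Wnt6 and Apoe averaged 202 ± 24.9 and 27874 ± 2249 after lesion.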

How the data were processed

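RNA of the 6 libraries was isolated with Qiazol and made into libraries with TruSeq V2 kits, per the labels' protocols. The deposited table holds normalized read counts per gene, treated as a signal, and the authors' aligner was TopHat with the mm10 build, per the submitters' processing notes. Of the counting tool, the annotation and the scaling nothing is given in the sources used here. Whole reads were recovered by dividing each library by its smallest step: all 339603 values checked came out whole within 0.1 (100%).

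Genes with a value of at least 10 in at least 3 of the 6 libraries were tested with limma 3.58.1 (R 4.3.3) on log2(value + 1), with trended and robust eBayes and Benjamini-Hochberg adjustment at 0.05. Lesion, E17.5 and 36 h libraries were compared with 6 h in fits of their own. The fit was run before use on simulated data with few planted changes and no trend with GC, a setting unlike this comparison. There limma recovered 50% of planted 1.5-fold changes and 90% of planted 2-fold changes. Alternatives were edgeR 4.0.16 and DESeq2 1.42.0 on the recovered reads, 2 rescalings, 2 pseudocounts, 2 filters, all libraries in 1 fit, plain eBayes and each library left out. Centring on GC, and on GC and length, was added after the data had been seen, as were 2 marker sums with 1 gene left out.

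Genes were named by rule: by log2 difference, the first 15 in each direction of the called genes whose groups did not overlap and whose higher mean was at least 100, the 8 largest of each by mean value, the first 4 and the 3 largest changes per list (all where 5 or fewer), and the Cacna2d genes. Members and lists were chosen with earlier results of these data known. Some genes that the rule names are not reported here, and no protein sequences were used.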

Additional observations from a re-analysis of the deposited data

How the results depend on the processing

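The counts of genes called different stayed within 1.5 times under every alternative run: 3383 to 4300 were higher (4019 as reported), 3651 to 4716 lower (4474), 1080 to 1868 at least 2-fold higher (1452) and 1107 to 1968 at least 2-fold lower (1599). edgeR called 4228 higher and 4521 lower, DESeq2 4256 and 3901, and limma after centring on GC 4038 and 3842. Leaving out 1 library gave 3383 to 4061 higher and 3651 to 4716 lower. Of the 209 genes with values in the text that were tested, 190 passed the threshold and 178 of these passed it under every alternative that tested them. Ddit4 turned to 0.0071 with centring on GC and length, and Hspb1 to 0.36 with centring on GC and 0.39 on GC and length.

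Of the lists whose median was at least 0.1 from 0 on the log2 scale, 8 changed sign. With centring on GC these were the tubulins (0.030), the intermediate filaments (0.014), the calcium channels (0.097), the release machinery (0.075) and the cell cycle genes (0.058). With centring on GC and length they were metal handling (−0.0011), oxidative phosphorylation (0.050), calcium channels (0.015), release machinery (0.032) and the cell cycle genes (0.015). The cell cycle median was 0.33 at a minimum value of 50, which tests fewer genes, and −0.10 to 0.026 with 1 library left out, and that of oxidative phosphorylation was −0.27 without 6 h replicate 3 and 0.070 without 6 h replicate 1. Without a filter the lymphocyte median was −0.39. For the centred values and the left-out libraries the cause was not tested. No paired analysis was possible because the labels give these groups no shared replicate numbers. Depth limits low genes most in 6 h replicate 3, where 1 read is worth 3.53 units.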

Other observations

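Cyp1a1 stood among the genes most raised at 6 h, so other genes of the aryl hydrocarbon receptor were looked up after its values had been seen. The receptor Ahr measured 651, 517 and 571 at 6 h against 350.3, 331 and 305 after sham surgery (0.81 ± 0.12, limma adjusted p = 5.6e-05). Its repressor Ahrr measured 232, 232 and 179.8 against 70.8, 86.3 and 87.7 (1.38 ± 0.17, limma adjusted p = 6.8e-06), and Tiparp, a feedback inhibitor, measured 3211, 2675 and 3265 against 798, 713 and 779 (1.99 ± 0.11, limma adjusted p = 1.4e-09). Cyp1b1 averaged 2059 ± 234 against 1083 ± 36.0 (0.92 ± 0.11). All 4 rose, with no overlap between the groups, and none by as much as Cyp1a1. Of all tested genes 27.6% were higher at 6 h and 65.2% did not overlap. After lesion Cyp1a1 averaged 2.36 ± 0.714, Tiparp 715 ± 7.74 and Ahrr 49.2 ± 5.71, and at 36 h of culture Cyp1a1 averaged 1638 ± 588.

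Olfr921, named for the olfactory receptors, was at 0 reads in all sham libraries and measured 77.7, 95.6 and 173 at 6 h (6.78 ± 0.42, limma adjusted p = 5.9e-09), at least 159-fold above the sham floor of 3 reads over the group. It averaged 0.258 ± 0.447 after lesion and 20.7 ± 12.8 at 36 h. Reads shared between members of this large family may have been split between them.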
